A study of Rattus norvegicus with 12 samples.

Results

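The genes described here are the sterol regulatory element-binding proteins (SREBPs) and a set of their lipid synthesis targets: Srebf1, Srebf2, Insig1, Hmgcs1, Sqle, Fdps, Fasn and Acly, measured in low Fe and high Fe rat jejunal mucosa. A probe set, the group of short DNA probes that reads out 1 transcript on an Affymetrix array, was taken as theirs where the platform annotation gave it that gene symbol and no other. Of the 8 genes, 7 had a probe set, out of 13810 genes named this way on either array type, and the expression of Hmgcs1 was not analysed here. The 7 genes had 10 of the 15866 probe sets of array type 230A and 0 of the 15276 of array type 230B. The low Fe and high Fe groups each had 3 samples on 230A and 3 on 230B, numbered alike and labelled as week 12 scrapings from the lining of the jejunum, the middle part of the small intestine. The labels carry the keywords iron-deficiency and anemia, and give no diet composition, strain, sex or age beyond the week number. Whether the 3 samples of a group were 3 animals is not stated, so p-values here measure only the spread between samples, which may be technical.

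SREBPs are transcription factors made as membrane proteins of the endoplasmic reticulum. When sterols are scarce, the escort protein Scap carries them to the Golgi, where 2 proteases, the products of Mbtps1 and Mbtps2, release the part that enters the nucleus. When sterols are plentiful, Insig proteins hold Scap back. SREBP-2, the product of Srebf2, mainly drives genes of cholesterol synthesis and uptake, while SREBP-1, the product of Srebf1, mainly drives fatty acid synthesis. Srebf1 has 2 transcription starts, of which the upstream one gives SREBP-1a and the downstream one SREBP-1c. The intestine both makes cholesterol and absorbs it from food.

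Here 5 promoter windows of 4 members are printed to show which short motifs lie near the starts of the SREBP genes themselves, of the feedback gene Insig1 and of 1 enzyme gene. Windows of 300 bases, from 250 before to 50 after the annotated start, come from RefSeq on assembly GRCr8. They were found for 6 of the 8 genes, 7 windows in all, and none was found for Fasn or Sqle. Each reads 5′ to 3′ along the gene's own strand, and capitals mark matches to the 4 motifs named after the sequences.
Srebf1, upstream start (chr10:45529115-45529414, minus strand): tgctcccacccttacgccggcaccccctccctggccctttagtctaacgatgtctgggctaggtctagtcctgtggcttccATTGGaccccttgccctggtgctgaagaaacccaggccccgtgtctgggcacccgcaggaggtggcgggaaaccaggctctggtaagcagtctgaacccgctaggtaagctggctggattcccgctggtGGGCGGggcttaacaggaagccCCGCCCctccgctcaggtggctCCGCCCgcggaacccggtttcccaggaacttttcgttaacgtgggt
Srebf1, downstream start (chr10:45518961-45519260, minus strand): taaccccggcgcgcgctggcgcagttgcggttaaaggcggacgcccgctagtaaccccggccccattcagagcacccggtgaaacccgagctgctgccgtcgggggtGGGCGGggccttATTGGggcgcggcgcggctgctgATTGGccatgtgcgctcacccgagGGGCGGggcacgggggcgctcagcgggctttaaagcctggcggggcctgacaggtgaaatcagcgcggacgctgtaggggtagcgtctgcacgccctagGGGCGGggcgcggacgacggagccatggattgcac
Srebf2 (chr7:115543057-115543356, plus strand): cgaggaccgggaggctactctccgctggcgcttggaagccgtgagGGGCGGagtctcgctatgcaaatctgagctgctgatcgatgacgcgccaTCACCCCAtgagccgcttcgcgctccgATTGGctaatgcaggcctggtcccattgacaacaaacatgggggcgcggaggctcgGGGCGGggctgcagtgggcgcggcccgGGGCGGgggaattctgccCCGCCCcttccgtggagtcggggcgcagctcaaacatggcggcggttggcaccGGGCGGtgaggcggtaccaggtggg
Insig1 (chr4:8057720-8058019, minus strand): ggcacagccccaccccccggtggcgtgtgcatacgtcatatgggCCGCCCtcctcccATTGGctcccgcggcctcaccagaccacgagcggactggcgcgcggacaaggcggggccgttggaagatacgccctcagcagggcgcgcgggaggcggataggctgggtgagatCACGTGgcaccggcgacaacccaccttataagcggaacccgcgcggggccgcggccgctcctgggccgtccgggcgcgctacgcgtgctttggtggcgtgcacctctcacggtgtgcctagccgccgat
Fdps (chr2:176804767-176805066, minus strand): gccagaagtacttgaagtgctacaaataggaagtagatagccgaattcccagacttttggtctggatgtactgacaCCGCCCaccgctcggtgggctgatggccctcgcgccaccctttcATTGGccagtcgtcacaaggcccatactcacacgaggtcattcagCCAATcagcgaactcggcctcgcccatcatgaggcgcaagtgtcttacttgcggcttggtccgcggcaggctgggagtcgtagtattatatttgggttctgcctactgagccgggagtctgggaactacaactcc
The motifs were searched on both strands: TCACNCCA, a core of the sterol regulatory element, CCAAT, which binds NF-Y, GGGCGG, the GC box, which binds Sp1, and CACGTG, an E-box. No 2 of the matches overlapped. TCACNCCA matched 1 of the 7 windows, that of Srebf2, starting at base -156 before the annotated start, against 3.89% of all 33465 windows in the table. CCAAT matched 7 of 7 windows, against 37.5% of all windows. GGGCGG also matched 7 of 7, against 33.1% of all windows. CACGTG matched the Insig1 window alone, at base -79, against 6.42% of all windows. The 7 windows held 55.7% to 71.3% G and C, above the median of 51.7% over all windows. Only these exact letters were searched, so a window without TCACNCCA may hold another form of the sterol regulatory element. A match describes letters only, and which Srebf1 start feeds either of its probe sets was not determined here.

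**Figure D1:**
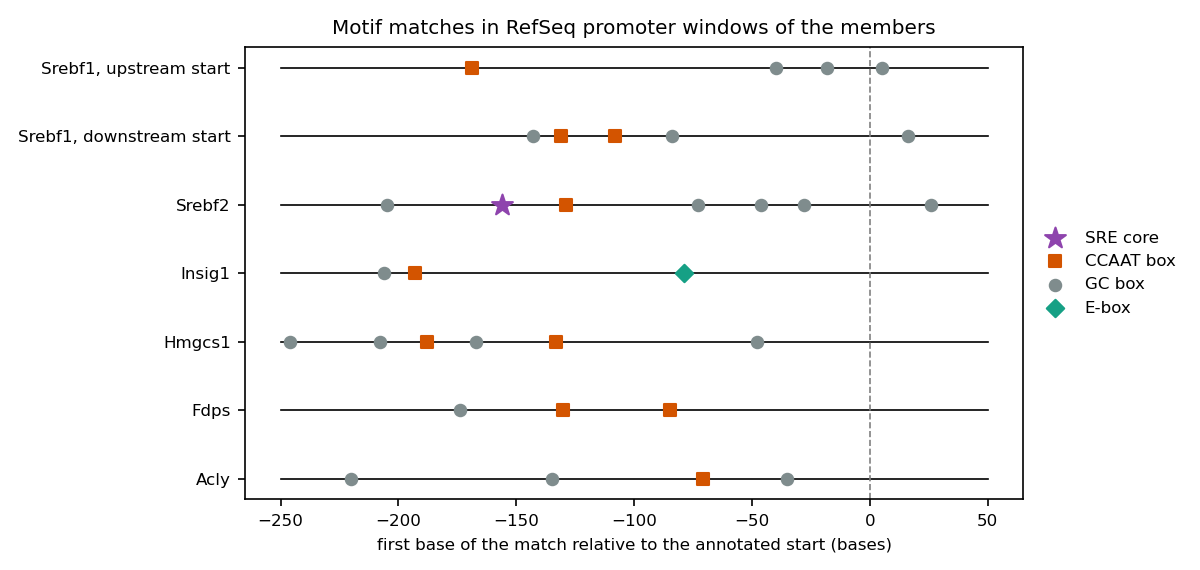
Motif matches in the 7 RefSeq promoter windows of the 6 members that had one. The horizontal axis is the distance in bases of a match's first base from the annotated start (dashed line), and each row is 1 window. Every row holds a CCAAT box and a GC box. Among the strings searched, TCACNCCA lies in the Srebf2 row alone and CACGTG in the Insig1 row alone. Other forms of the sterol regulatory element were not searched.

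Signals are linear and in the deposited units, and were tested as log2(signal + 16). Differences are low Fe minus high Fe, so a negative value means lower in low Fe, and are given ± SE. The dimmest 40% of probe sets were left out of the test, which left 9519 on 230A with a boundary at a signal of 106. Of the members' 10 probe sets, 8 passed that filter and covered all 7 genes, and 1 dimmer probe set each of Srebf2 and Fasn did not. Median signals of the 6 arrays ran from 154.5 to 176.2 on 230A, arrays correlated at 0.962 to 0.979, and enterocyte markers were bright, with the villin gene Vil1 at 37952 to 41208 in low Fe and 39873 to 50856 in high Fe on 230B. The samples are bulk tissue, so fewer cells of a type and less RNA per cell cannot be told apart.

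No member changed past the threshold between low Fe and high Fe: 0 of the 8 tested probe sets had an adjusted p below 0.05 in limma, where 9 of 9519 probe sets, or 0.0945%, did. The log2 differences lay below 0 for 5 of the 8 and above 0 for 3, where 53.1% of all tested probe sets lay below 0. The groups did not overlap for 1 of the 8, a probe set of Srebf1 that was lower in all low Fe samples, against 6.18% of all tested probe sets. In 0 of the 8 were all low Fe samples higher, against 5.61% of all. An unadjusted p below 0.05 with low Fe lower was also reached by 1 of 8, against 3.51% of all. With 8 probe sets tested, a count of 1 rests on a single probe set, that of Srebf1.

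Srebf1, the SREBP gene tied to fatty acid synthesis, had the lowest log2 difference of the members. Its brighter probe set, 1388426_at, read 988, 791 and 827.4 in low Fe replicates 1 to 3, against 1181, 1343.6 and 1356.3 in high Fe replicates 1 to 3. The highest low Fe array thus lay below the lowest high Fe array. The means were 869 ± 105 in low Fe and 1294 ± 97.7 in high Fe (SD, n = 3 each). The log2 difference was -0.57 ± 0.14 (SE), with a 95% interval of -0.88 to -0.26, or a ratio of 0.674 of low Fe over high Fe. The unadjusted p in limma was 0.00257, which 50 of the 9519 probe sets reached, and the adjusted p was 0.488. An exact permutation test of 3 samples against 3 cannot go below p = 0.1.

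A dimmer Srebf1 probe set, 1371104_at, overlapped between the groups. It read 913.1, 561.2 and 483.5 in low Fe replicates 1 to 3, against 749.8, 967.5 and 947.4 in high Fe replicates 1 to 3. Low Fe replicate 1 stood at the level of the high Fe arrays, and the other 2 low Fe arrays lay below all of them. Its log2 difference was -0.48 ± 0.23 (SE; limma adjusted p = 0.755), and leaving out low Fe replicate 1 gave -0.74 while leaving out low Fe replicate 3 gave -0.30. For the brighter probe set, leaving out 1 array at a time gave -0.66 to -0.51, with -0.66 without low Fe replicate 1. The mean of the 2 Srebf1 probe sets gave -0.52 ± 0.18 (SE; limma adjusted p = 0.624).

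Srebf2, whose protein governs the cholesterol genes, lay at the same level in both groups within their spread. Probe set 1371979_at read 1956.1, 2008.9 and 1685.9 in low Fe replicates 1 to 3, against 2224.4, 1616.1 and 1752.5 in high Fe replicates 1 to 3. The means were 1884 ± 173 in low Fe and 1864 ± 319 in high Fe (SD, n = 3 each), and high Fe replicate 1 was the highest array. The log2 difference was 0.02 ± 0.15 (SE), with a 95% interval of -0.32 to 0.37 (limma adjusted p = 0.981). The second Srebf2 probe set, 1377489_at, was under the filter, at 53.2, 30.4 and 36.3 in low Fe against 15.2, 45.8 and 40.5 in high Fe.

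Insig1, which retains Scap in the endoplasmic reticulum and is itself switched on by SREBPs, was spread widely within low Fe. Probe set 1367894_at read 3423, 1727.5 and 1564.5 in low Fe replicates 1 to 3, against 2169.5, 2407.3 and 2107.9 in high Fe replicates 1 to 3. Low Fe replicate 1 was the highest of the 6 arrays, while the other 2 low Fe arrays were lower than all high Fe arrays. The means, 2238 ± 1029 in low Fe and 2228 ± 158 in high Fe (SD, n = 3 each), differed by far less than that spread. The log2 difference was -0.08 ± 0.26 (SE), with a 95% interval of -0.68 to 0.51 (limma adjusted p = 0.966). Without low Fe replicate 1 it was -0.43 (adjusted p = 0.280), and without low Fe replicate 3 it was 0.13.

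**Figure D2:**
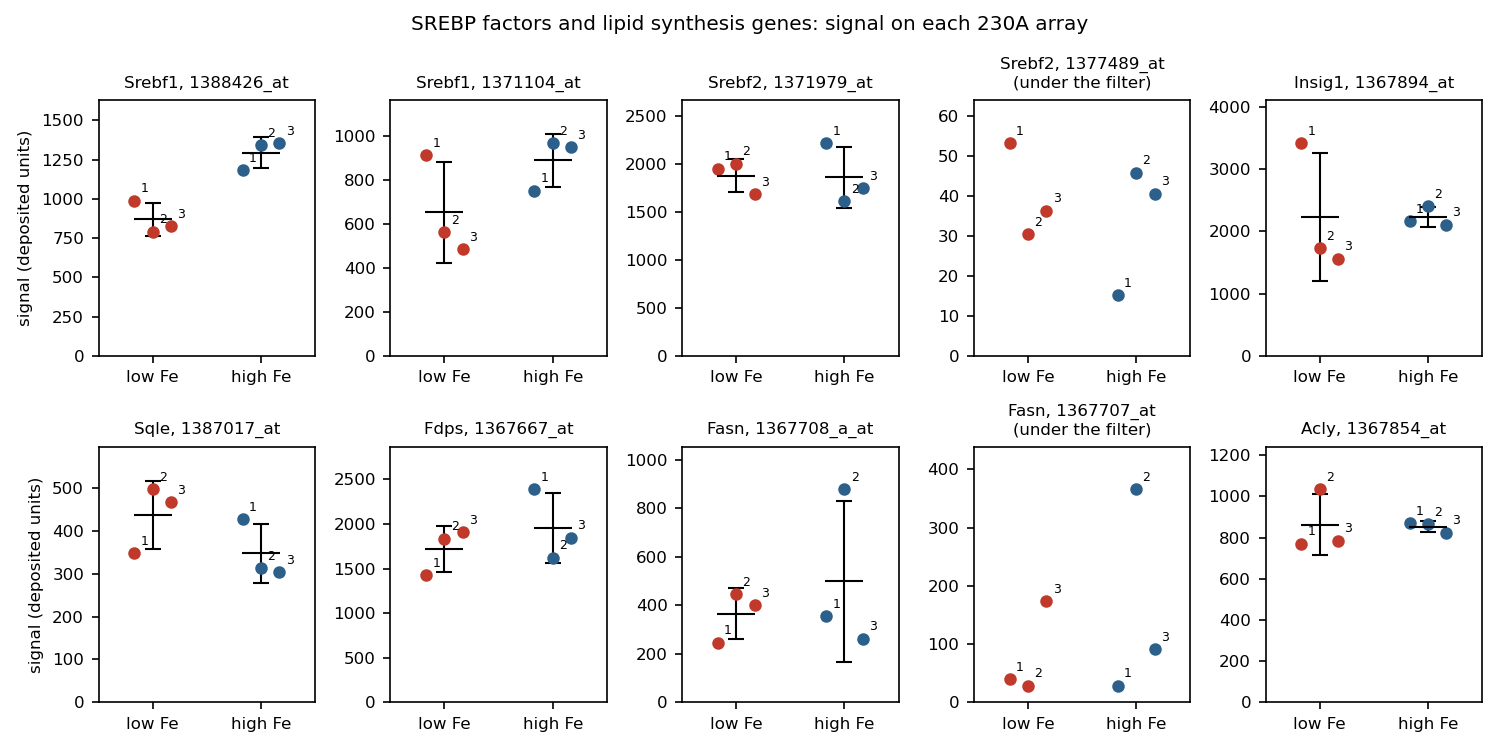
Signal of all 10 member probe sets on each 230A array, in deposited units. Points are arrays numbered by replicate, low Fe in red at the left and high Fe in blue at the right, with bars for the mean ± SD (n = 3) of tested probe sets. The groups separate for Srebf1 1388426_at (791 to 988 in low Fe, 1181 to 1356.3 in high Fe), and low Fe replicate 1 stands above the rest for Insig1.

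The enzyme genes of the cholesterol branch had differences of opposite sign, and their groups overlapped. Sqle encodes squalene epoxidase, the first oxygen-requiring enzyme of sterol synthesis. Probe set 1387017_at read 347.3, 496.2 and 466 in low Fe replicates 1 to 3, against 427.1, 312.4 and 303.1 in high Fe replicates 1 to 3. Here 2 low Fe arrays lay above every high Fe array and low Fe replicate 1 lay among them. The log2 difference was 0.32 ± 0.19 (SE), with a 95% interval of -0.12 to 0.75 (limma adjusted p = 0.783), and leaving out 1 array gave 0.22 to 0.47. Fdps encodes farnesyl diphosphate synthase, at the branch from which sterols and isoprenoids are made. Probe set 1367667_at read 1423.8, 1834 and 1908.1 in low Fe replicates 1 to 3, against 2388.2, 1621.6 and 1848.2 in high Fe replicates 1 to 3. Low Fe replicate 1 was the lowest array and high Fe replicate 1 the highest. The log2 difference was -0.17 ± 0.18 (SE), with a 95% interval of -0.57 to 0.23 (limma adjusted p = 0.860), and it was -0.02 without high Fe replicate 1.

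For Acly and Fasn, which act in fatty acid synthesis, the groups overlapped. Acly encodes ATP citrate lyase, which makes the cytosolic acetyl-CoA used for both sterols and fatty acids. Probe set 1367854_at read 770.8, 1034.3 and 784.9 in low Fe replicates 1 to 3, against 871.2, 863.9 and 824 in high Fe replicates 1 to 3. The 3 high Fe arrays lay within the range of the low Fe arrays, and the log2 difference was 0.00 ± 0.15 (SE), with a 95% interval of -0.33 to 0.34 (limma adjusted p = 0.996). Fasn encodes fatty acid synthase, which builds palmitate. Probe set 1367708_a_at read 246.8, 447.3 and 401.4 in low Fe replicates 1 to 3, against 357.1, 878.8 and 262.5 in high Fe replicates 1 to 3. High Fe replicate 2 was far above the other arrays. The log2 difference was -0.29 ± 0.40 (SE), the widest interval of the members at -1.20 to 0.62 (limma adjusted p = 0.896), and it was 0.20 without high Fe replicate 2. The dim Fasn probe set, 1367707_at, read 40.3, 29 and 174 in low Fe against 28.5, 365.4 and 91.6 in high Fe, again with high Fe replicate 2 highest, and was under the filter.

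**Figure D3:**
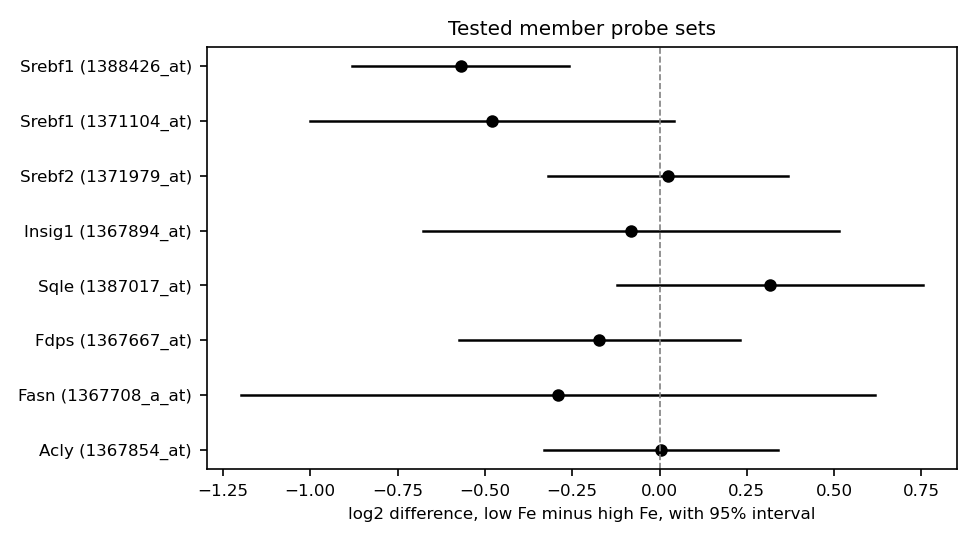
Log2 differences, low Fe minus high Fe, of the 8 tested member probe sets from the limma fit, with 95% intervals as bars and a dashed line at 0. The interval of Srebf1 1388426_at (-0.88 to -0.26) leaves out 0 before adjustment, the other 7 include it, and that of Fasn is the widest.

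Arrays also differed in a measure of RNA quality, the ratio of 5′ to 3′ signal of the GAPDH control, which falls when RNA is partly degraded. On 230A it was 0.876, 0.807 and 0.794 in low Fe replicates 1 to 3, against 0.811, 0.922 and 0.887 in high Fe replicates 1 to 3. Below a ratio of 0.85 lay 2 low Fe arrays and 1 high Fe array, and above it 1 low Fe array and 2 high Fe arrays. The Srebf1 1388426_at difference was -0.54 within the set below and -0.44 within the set above. Srebf1 1371104_at gave -0.51 below and -0.07 above. For Insig1 the difference turned, at -0.40 below and 0.60 above, as it did for Srebf2 at -0.27 below and 0.22 above, for Fasn at 0.24 below and -0.93 above, and for Acly at 0.05 below and -0.13 above. Fdps gave -0.35 below and -0.28 above, and Sqle 0.17 in both. With 1 array on one side of each set, these values have no test. The low Fe side of the set above was replicate 1 alone, and the high Fe side of the set below was replicate 1 alone. A turn of sign thus cannot be told apart from the reading of a single array. On 230B low Fe replicate 3 had a GAPDH ratio of 0.873, so the sets differ by array type. The same ratio for actin on 230A was 0.054 in low Fe replicate 3 and 0.591 to 0.836 on the other 5 arrays. Without low Fe replicate 3 the Srebf1 differences were -0.54 for 1388426_at and -0.30 for 1371104_at.

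The machinery that controls SREBPs was taken as a list of 14 genes, of which 12 were tested on 230A, Srebf1, Srebf2 and Insig1 among them. The lists that follow likewise hold members, Fdps and Sqle among the cholesterol enzymes and Acly and Fasn among the fatty acid genes, so their counts and medians reuse member values. On that array 0 passed the threshold in either direction, and 3 lay above 0 and 9 below. Over all 7051 tested genes 50.4% lay below 0, a share to set beside each 230A list that follows. The median log2 difference was -0.06 in the SREBP control list, against -0.002 over all tested genes. Scap, the escort of SREBPs, gave discordant probe sets. On 230B, probe set 1384464_at read 455.3, 441.9 and 354.2 in low Fe replicates 1 to 3, against 528.3, 580.1 and 687.4 in high Fe replicates 1 to 3, with no overlap. Its log2 difference was -0.50 ± 0.20 (SE; limma adjusted p = 0.456). On 230B, 0% of the 9165 tested probe sets passed, with 932 at an unadjusted p below 0.05, and 10.3% had all low Fe samples lower. On 230A the other Scap probe set, 1389567_at, gave -0.04 ± 0.32, and its 3 low Fe arrays lay within the range of the high Fe arrays.

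The second Insig gene, Insig2, gave 0.02 ± 0.15 on 230A and -0.09 ± 0.18 on 230B. On 230B low Fe replicate 1 was the highest array for Insig2, at 4049.6, as it was for Insig1 on 230A. The membrane ubiquitin ligase gene Rnf139 was lower in all low Fe samples, at 404.2 to 458.7 against 470 to 557 in high Fe, with a log2 difference of -0.24 ± 0.14 (limma adjusted p = 0.778). Erlin1, whose product binds cholesterol in the endoplasmic reticulum, gave -0.18 ± 0.15, the protease gene Mbtps1 -0.15 ± 0.14 and Ubxn4, which acts in protein degradation at that membrane, 0.15 ± 0.13.

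Of the mevalonate and cholesterol synthesis enzymes, 17 genes were tested on 230A, and 0 passed in either direction. In 6 the difference lay above 0 and in 11 below, with a median of -0.08 and a range of -0.87 to 0.33. Mvk, mevalonate kinase, had the highest value at 0.33 ± 0.18, with 337.5, 433.1 and 465.7 in low Fe against 382.3, 303.7 and 284.4 in high Fe. A dimmer Mvk probe set went the other way, at -0.55 ± 0.20 (limma adjusted p = 0.691), with 116.5, 161.9 and 97.7 in low Fe against 179.5, 198 and 185.9 in high Fe and no overlap. Fdft1, squalene synthase, gave -0.32 ± 0.21. Mvd, mevalonate diphosphate decarboxylase, gave -0.87 ± 0.58, which was -0.11 without low Fe replicate 1: it read 23.3, 225 and 134.1 in low Fe, against 217.1, 243.6 and 127.3 in high Fe. On 230B 3 genes were tested, 0 passed, and Sc5d, a late-pathway desaturase, gave -0.48 ± 0.25 there, and 0.02 ± 0.13 and -0.20 ± 0.17 for its probe sets on 230A.

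The cholesterol enzymes were low together on 1 array, a pattern noticed after the values were seen. In low Fe replicate 1, 10 of the 17 genes had their lowest signal of the 6 arrays, or 58.8%, against 19.0% of all tested genes on that array. The 10 were Fdps, Cyp51, Tm7sf2, Fdft1, Dhcr7, Ebp, Acat2, Lss, Nsdhl and Mvd. The median deviation from a gene's own mean was -0.26 log2 units there, against 0.07 and 0.13 in the other low Fe arrays, and 0.08, 0.15 and -0.03 in the high Fe arrays. The list median was 0.01 without low Fe replicate 1 and also 0.01 without high Fe replicate 2, so its sign rested on those arrays.

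Most of the tested genes of cholesterol uptake, transport and esterification lay high on the same array, which was picked out after the values were seen. Of 6 tested on 230A, 4 had their highest signal in low Fe replicate 1, or 66.7%, against 13.0% of all tested genes, and the median deviation there was 0.39. These 4 were Scarb1, Abcg5, Abcg8 and Mylip. Npc2 and Stard3 did not stand high there: Npc2 read 2012.9, against 1977.2 to 2955.5 on the other arrays, and Stard3 530.5, against 494.9 to 578.3. Abcg5 and Abcg8 form the sterol exporter of the brush border. Abcg5 read 2210.1, 1144.3 and 1482.5 in low Fe replicates 1 to 3, against 2085.7, 2154.6 and 1911.6 in high Fe replicates 1 to 3. Abcg8 read 1563, 725 and 718.8 in low Fe, against 1103, 1470 and 1458.5 in high Fe. For both, 2 low Fe arrays lay below every high Fe array and low Fe replicate 1 lay above every high Fe array. Their log2 differences were -0.39 ± 0.22 and -0.50 ± 0.29, and without low Fe replicate 1 they were -0.65 (adjusted p = 0.174) and -0.87 (adjusted p = 0.115). Abcg5 was -0.18 without low Fe replicate 2, and Abcg8 was -0.32 without either low Fe replicate 2 or low Fe replicate 3. Scarb1, a scavenger receptor for cholesterol esters, read 6662.5, 3555.3 and 2933.4 in low Fe, against 4175.2, 5790.2 and 5246 in high Fe, and gave -0.29 ± 0.28. Leaving out low Fe replicates 1, 2 or 3 gave -0.64, -0.18 or -0.05, leaving out high Fe replicate 2 gave -0.19, and a dimmer Scarb1 probe set gave -0.04 ± 0.13.

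**Figure D4:**
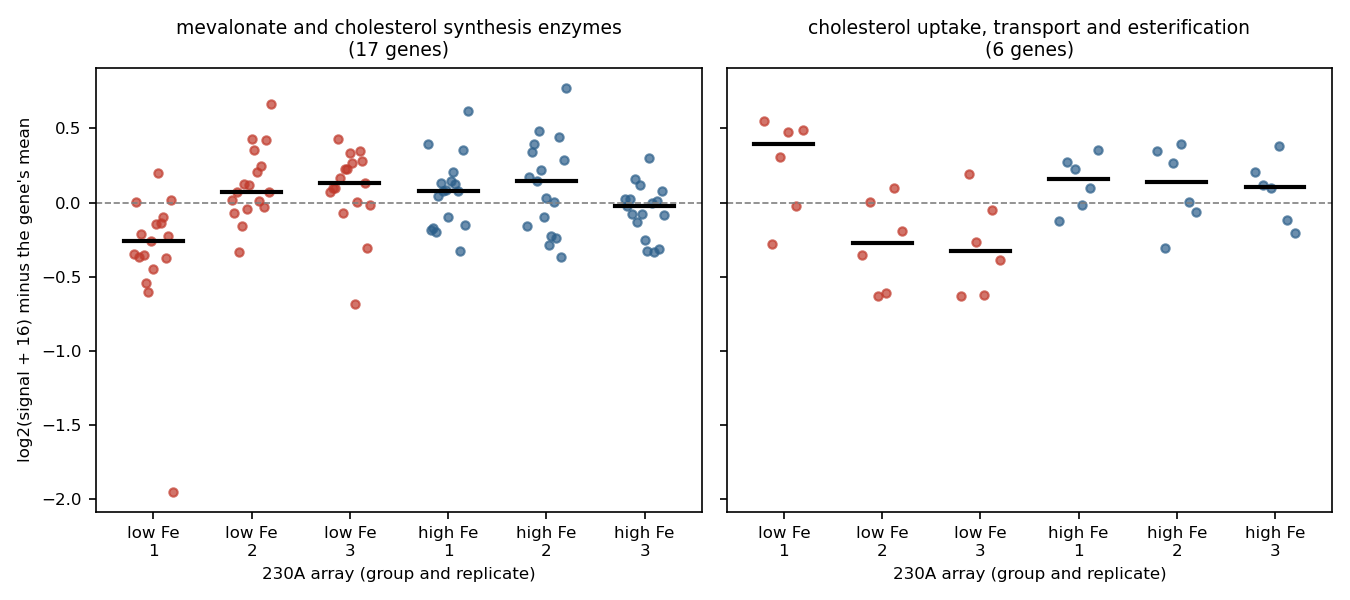
Log2(signal + 16) minus each gene's mean over the 6 arrays of 230A, for 17 cholesterol synthesis genes (left) and 6 genes of cholesterol uptake and transport (right). Each point is a gene and each bar the median on that array. Low Fe replicate 1 has the lowest median at the left (-0.26) and the highest at the right (0.39).

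In the uptake list, 0 of 6 passed on 230A, 1 lay above 0 and 5 below, with a median of -0.17. Leaving out low Fe replicate 1 gave a median of -0.48 and leaving out low Fe replicate 3 one of -0.10, and with a common array median 3 of 6 lay below 0. On 230B 1 gene was tested, Stard4, a cytosolic sterol carrier, at 0.12 ± 0.17, with 0.17 ± 0.14 and -0.19 ± 0.20 for its dimmer probe sets. The liver X receptor genes belong beside these, since the receptor Nr1h3 senses oxysterols and drives both Srebf1 and the sterol exporters. Of 6 tested on 230A, 0 passed, with 1 above 0, 5 below and a median of -0.15 that was 0.07 without low Fe replicate 3. Nr1h3 itself gave -0.23 ± 0.17, Lpcat3, a phospholipid acyltransferase, -0.26 ± 0.15 (-0.34 ± 0.15 for a dimmer probe set), the transporter Abcg1 0.18 ± 0.19 and the partner receptor Rxra -0.40 ± 0.67. Both genes tested on 230B lay below 0. Pltp, phospholipid transfer protein, read 688.2, 641.6 and 676.9 in low Fe, against 983.2, 1027 and 1242.8 in high Fe, with no overlap. Its log2 difference was -0.68 ± 0.17, with an unadjusted p of 0.00344 and an adjusted p of 0.414 in limma. Abca1, the cholesterol efflux pump, gave -0.43 ± 0.27.

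Of the fatty acid and triglyceride genes, 18 were tested on 230A and 0 passed in either direction. In 5 the difference lay above 0 and in 13 below, where 50.4% of all tested genes lay below. The median was -0.13 and the range -1.42 to 0.26. Without high Fe replicate 2 the median was -0.04. All low Fe samples were lower for 4 of the 18, Thrsp, Scd, Fads2 and Me1, where 426 of all 7051 tested genes showed this. Thrsp lay below the filter boundary of 106 on all low Fe arrays and passed through its high Fe arrays, and Scd and Fads2 lay near it in low Fe, so the filter had a part in this count. Thrsp, a lipogenic cofactor, read 101.7, 76.3 and 102.1 in low Fe replicates 1 to 3, against 164, 742.7 and 164.6 in high Fe replicates 1 to 3. Scd, stearoyl-CoA desaturase, an iron-containing enzyme, read 108.5, 138.5 and 95.5 in low Fe, against 172.6, 1073.9 and 149.8 in high Fe. High Fe replicate 2 lay several times above every other array for both. Their log2 differences were -1.42 ± 0.49 (limma adjusted p = 0.681) and -1.33 ± 0.61 (limma adjusted p = 0.750), and without high Fe replicate 2 they were -0.73 and -0.46. Fads2, a fatty acid desaturase, gave -0.37 ± 0.19, Me1, malic enzyme, which supplies NADPH, -0.20 ± 0.11 and Acaca, acetyl-CoA carboxylase, -0.23 ± 0.20. A dimmer Acaca probe set gave -0.63 ± 0.21 (limma adjusted p = 0.680), with 118.3, 112.2 and 77.3 in low Fe against 136, 184.4 and 178.2 in high Fe and no overlap. Its low Fe values also lay near the filter boundary of 106. A dimmer Me1 probe set gave -0.32 ± 0.16. On 230B 4 genes were tested and 0 passed, with 3 above 0, 1 below, a median of 0.07 and a range of -0.32 to 1.27. Its top was Lpin1, a phosphatidate phosphatase named after its value was seen, which read 2003.3, 2968.6 and 1686.7 in low Fe, against 2001.6, 205.4 and 1634.4 in high Fe, with high Fe replicate 2 far below the rest. Lpin1 gave 0.26 ± 0.26 on 230A.

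Most fat cell markers were highest in high Fe replicate 2, as Fasn, Scd and Thrsp were. So were 21.0% of all tested genes on 230A, the largest share of any array. On 230A the enterocyte markers Fabp1, Anpep, Fabp2, Alpi and Apoa4 were highest there too, and Slc5a1 was not. The goblet cell markers Muc2, Tff3 and Fcgbp were also highest there, and Clca1 was not. Of 8 listed fat cell markers, 6 were measured on 230A, 3 of them under the filter, and 1 on 230B. Fabp4, a fatty acid carrier of fat cells, read 65.4, 69.7 and 36.7 in low Fe, against 112.9, 635.8 and 101 in high Fe. Cfd, or adipsin, read 103.2, 101.2 and 95 in low Fe, against 151.4, 408.5 and 131.9 in high Fe. Adipoq, the adiponectin gene, read 362.5, 357.4 and 248.7 in low Fe, against 489.1, 1778.3 and 502.2 in high Fe on 230B. For all 3 the high Fe arrays lay above the low Fe arrays, with high Fe replicate 2 far above the rest. Among all tested probe sets, 6.18% on 230A and 10.3% on 230B had all low Fe samples lower. Fabp4 and Cfd lay below the 230A filter boundary of 106 on all low Fe arrays and passed through their high Fe arrays. The filter thus had a part in their lack of overlap. Plin1 and Lpl were also highest in high Fe replicate 2, at 102.5 and 278.2. Pck1 was highest in high Fe replicate 1, and Lep, the leptin gene, stayed at 26.5 or less on every array. The summed 230A marker signal was 2286 to 5061 in low Fe and 5349 to 7376 in high Fe, most of it from Pck1, which mucosa may also express. None passed the threshold. The part of fat cells in the Fasn, Scd and Thrsp differences was not tested. High Fe replicate 2 was the middle high Fe array for Srebf1 1388426_at, at 1343.6, and the highest array for Srebf1 1371104_at, at 967.5.

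**Figure D5:**
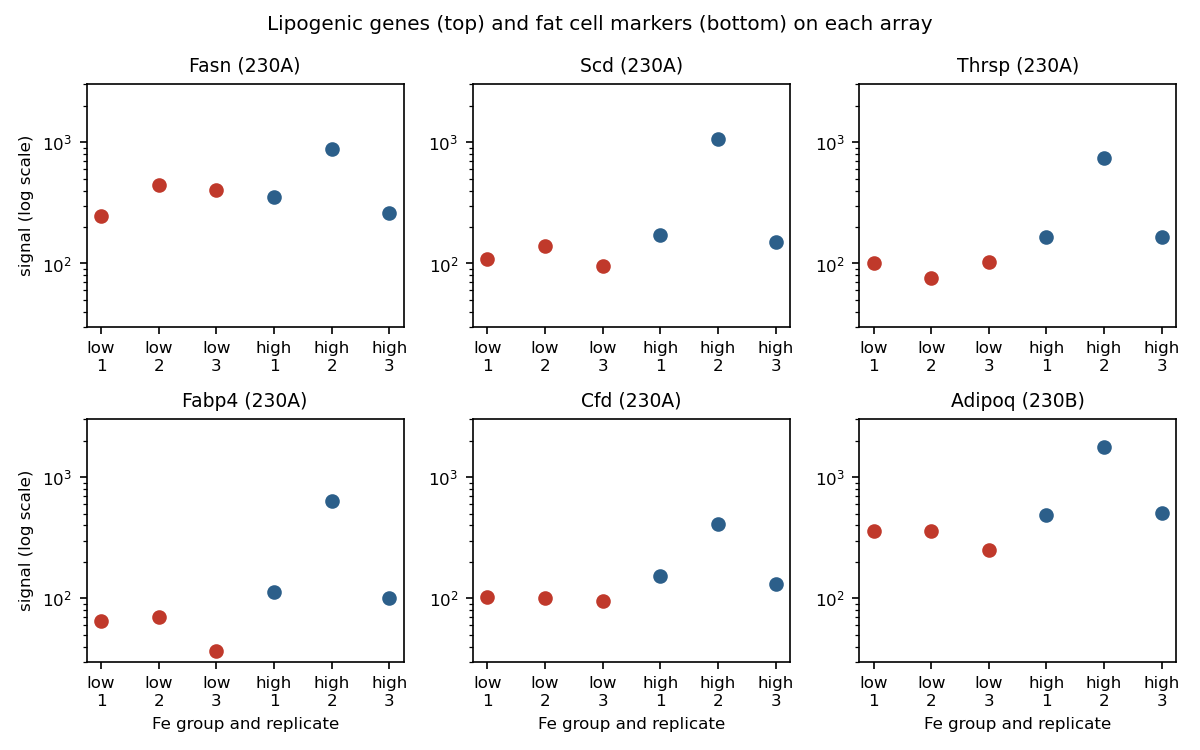
Signal, on a log axis, of Fasn, Scd and Thrsp (top row) and of the fat cell markers Fabp4, Cfd and Adipoq (bottom row) on each array, low Fe in red at the left and high Fe in blue at the right, numbered by replicate. High Fe replicate 2 is the highest array in all 6 panels, for example at 1073.9 for Scd and 1778.3 for Adipoq.

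For smooth muscle and for crypt cells the summed 230A marker signal did not overlap between the groups, but a single gene carried most of each sum. The summed 230A signal of 8 smooth muscle markers was 4523 to 5928 in low Fe and 3505 to 4211 in high Fe, and that of 5 crypt and cycling markers was 2399 to 3590 in low Fe and 1432 to 1609 in high Fe. Mylk carried most of the first sum, at 3390.7 to 4013.3 in low Fe and 2436 to 2925.9 in high Fe, and Pcna most of the second, at 1736.8 to 2686 in low Fe and 1000 to 1068.2 in high Fe. Among the other smooth muscle markers on 230A, Acta2, Myh11, Actg2 and Cnn1 overlapped, while Des, Smtn and Tagln were higher in all low Fe samples. Among the other crypt markers, Ccnb1, Top2a and Lgr5 overlapped, while Mki67 was higher in all low Fe samples. On 230B the smooth muscle sum overlapped, at 882 to 1444 in low Fe and 919 to 1346 in high Fe. The 6 enterocyte markers summed to 63509 to 82973 in low Fe and 59926 to 101111 in high Fe, which overlapped. The summed 230A signals of liver, pancreas, goblet cell and lymphocyte markers overlapped between the groups. The lymphocyte marker Cd8a did not on 230A, at 101.3 to 115.4 in low Fe, near the filter boundary of 106, and 158.4 to 224.9 in high Fe. On 230B Cd8a overlapped, at 95.7, 224.8 and 304.8 in low Fe against 319, 254.9 and 501 in high Fe. Of the dim markers under the filter, the liver gene Apoh was lower in all low Fe samples. The lymphocyte gene Cd2 and the smooth muscle gene Tagln were higher in all of them. The part of these cell types in the Srebf1 difference was not tested.

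All 5 list medians on 230A lay below the median of all tested genes under each scaling, while their sign followed the scaling. Scaling to hybridization controls or to a common array median divides each array by a single factor, which shifts all genes nearly alike. The order of the medians under those scalings was thus nearly fixed in advance and is no separate check. With arrays scaled to their spiked hybridization controls, the median of all tested genes moved to 0.34, and the medians of the 5 lists became 0.28 for SREBP control, 0.26 for cholesterol synthesis, 0.22 for fatty acid synthesis, 0.18 for uptake and 0.20 for liver X receptor genes. Those controls read highest in high Fe replicate 2. With a common array median the medians ran from -0.10 to 0.01, against 0.06 for all tested genes. Under the scaling to hybridization controls Srebf1 1388426_at gave -0.22 and 1371104_at -0.13, and Insig1, Fdps and Fasn turned positive, at 0.27, 0.18 and 0.06. The order of the medians did not hold with every array left out. Without low Fe replicate 3 the liver X receptor median was 0.07, against -0.004 for all tested genes. Without high Fe replicate 2 the cholesterol synthesis median was 0.008, against -0.001. On 230B fatty acid synthesis (0.07) and the 1 uptake gene (0.12) lay above all tested genes (0.009), and the other lists below. Mylip counted in both the uptake and liver X receptor lists.

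The named genes most like Srebf1 1388426_at over the 6 arrays of 230A, by Pearson correlation of log2 values among 7044 other genes, were Hsd17b4, a peroxisomal enzyme of fatty acid oxidation (r = 0.997), the phosphate transporter Slc34a2 (r = 0.985) and Trappc8, a vesicle tethering factor (r = 0.979). In all, 97 genes had r above 0.9. For Insig1 they were Usp38 (r = 0.992), Copa, a coat protein of Golgi vesicles (r = 0.974), and Sectm1b (r = 0.957), with 41 genes above 0.9. Having been picked for this likeness, Hsd17b4, Slc34a2 and Trappc8 shared the Srebf1 pattern and were lower in every low Fe sample. Usp38, Copa and Sectm1b likewise shared that of Insig1, with their highest signal in low Fe replicate 1. Correlations over 6 arrays share those arrays and are given as a description.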

How the data were processed

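The authors deposited a linear signal intensity for each probe set on each array. No software for making them is named: it was not given in the sources used here. Genes were named through the platform annotation: 12783 probe sets on 230A had 1 symbol, 312 had several and 2771 had none, after 57 controls were left out.

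Values were taken as deposited and tested as log2(signal + 16), a scale that understates changes of dim genes. Probe sets in the lowest 40% by mean log2 value were left out. Averaging log2 rather than linear signals for this filter was settled with values in view. The contrast, low Fe minus high Fe, was fitted for each array type separately with limma 3.58.1 under R 4.3.3, using lmFit and trended eBayes. P-values were adjusted by Benjamini-Hochberg over all tested probe sets, with a threshold of 0.05. The steps were tested on simulated data.

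Members and gene lists were chosen with earlier results of these data known. The text names all members, a few fixed pathway genes, of which some are not reported here, and up to 4 other genes of each list with the smallest unadjusted p. The brightest tested probe set stands for a gene. Deviations of arrays with the same replicate number correlated at -0.36 to -0.15 on 230A, so no block was used. The number of arrays limits the precision. Alternatives covered pseudocounts, filters, scalings, eBayes options, a replicate block and arrays left out. Scaling to hybridization controls, the linear filter and the GAPDH sets were added after the data were seen.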

Additional observations from a re-analysis of the deposited data

How the results depend on the processing

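The count of members past the threshold was 0 under every alternative run. Over all probe sets on 230A, 9 passed, against 4 with the replicate number as a block, 15 at an adjusted p of 0.1, 33 with scaling to hybridization controls and 5 to 21 with 1 array left out (5 without low Fe replicate 2, 21 without low Fe replicate 1). On 230B the 0 became 3 with scaling to hybridization controls. The replicate block left the Srebf1 1388426_at difference at -0.57 and changed no call of a member. Both Srebf1 probe sets stayed below 0 under all 18 alternatives. The filters, the eBayes options and the replicate block cannot change a log2 difference in this balanced design. For 1388426_at, whose groups did not overlap, leaving out 1 array cannot turn the sign. Those alternatives are thus no check of the sign. Filtering on linear means brought in the dim Fasn probe set, at -0.64 ± 0.78 (limma adjusted p = 0.882).

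The mean log2 signal of the hybridization controls was 10.30 in high Fe replicate 2 on 230A, against 9.30 to 9.58 on the other arrays. On 230B the mean was 11.99 in high Fe replicate 2, against 11.17 to 11.42 on the others. Scaling to hybridization controls moved the median of all tested probe sets to 0.33 on 230A and 0.14 on 230B. It turned Insig1 to 0.27, Fdps to 0.18, Fasn to 0.060, Insig2 on 230B to 0.094, Scap on 230A to 0.29, Rnf139 to 0.11, Erlin1 to 0.18, Mbtps1 to 0.20, Fdft1 to 0.029, Acaca to 0.12, Me1 to 0.16, Scarb1 to 0.071, Nr1h3 to 0.12 and Lpcat3 to 0.10, all under that median. Quantile normalization turned Srebf2 to -0.0082, Insig2 on 230A to -0.013, Scap on 230A to 0.020 and Stard4 to -0.030, and a common median turned Scap on 230A to 0.026 and Insig2 on 230B to 0.037. With 1 array left out, signs turned for Srebf2 (-0.072 to 0.16), Insig1 (-0.43 to 0.13), Fasn (-0.64 to 0.20), Acly (-0.13 to 0.078), Scap on 230A (-0.43 to 0.25), Insig2 on 230A (-0.10 to 0.14) and on 230B (-0.27 to 0.011) and Rxra (-1.04 to 0.084). None of these genes passed the threshold under any alternative. Scaling to hybridization controls or to a common median divides each array by a single factor, so its turns of sign follow a shift shared by nearly all genes. Why the controls read differently and the cause of the other shifts were not tested. With the lowest 60% left out, some dim genes had no value.

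Scd, Thrsp, Fads2, Mvd and the dimmer Acaca probe set lay near the filter boundary of 106. With this, and with 3 arrays a group, small changes were not detectable at this precision.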
